A study of Chlamydomonas reinhardtii with 12 samples.

Results

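The flagellar associated proteins (FAPs) are components of the motile flagella of the green alga Chlamydomonas reinhardtii. The name is mostly given to proteins found in isolated flagella. The loci described here are those whose whole gene symbol in the deposited transcript table is FAP with a number and, where present, 1 letter, with 1 transcript taken per locus. The rule gave 220 of the 17741 loci, under 216 symbols: FAP65, FAP221, FAP258 and FAP281 each stand at 2 loci. Of the 220, 210 reached 1 FPKM (read fragments normalised by transcript length and library size) in at least 1 group, among 10915 loci of all kinds that did so.

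The groups were amiCYG12 in anoxia, in aerated darkness and in standard conditions, and the wild type (WT) in the same 3 incubations. WT is the strain CC-124. amiCYG12 is a transformant of CC-124 in which an artificial microRNA lowers CYG12, a soluble guanylate cyclase, an enzyme that makes the second messenger cyclic GMP. A single transformant is described, so the knockdown and this clone cannot be told apart. Anoxic cells had spent 6 h of darkness in sealed flasks and aerated dark cells 6 h in open beakers. Standard cells, aerated in TAP (a medium with acetate) at a light of 20 µmol photons m-2 s-1, were taken before the dark incubations, so darkness and time cannot be told apart. Oxygen loss and other effects of sealing the flasks cannot be told apart. All groups had been grown in the standard way. Poly(A) RNA was sequenced from 2 biological replicates per group, 12 libraries in all, and the authors deposited 1 pooled value per group. No value below therefore has an error between replicates, and the depth of the libraries is unknown. In bulk RNA such as this, fewer cells expressing a gene and less of its RNA per cell cannot be told apart.

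A flagellum is built on the axoneme, a ring of doublet microtubules around a central pair. Dynein arms on the doublets drive sliding, and radial spokes, the nexin-dynein regulatory complex (N-DRC, the link between doublets) and the central apparatus control it. Proteins inside the doublets (microtubule inner proteins) stabilise them, and intraflagellar transport (IFT) carries building blocks to the tip. Transcripts of flagellar genes are known to be induced together when Chlamydomonas regrows its flagella. The FAPs belong to nearly all of these structures, and many have no assigned place.

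The knockdown was visible in the dark incubations. CYG12 (Cre07.g320750, chromosome 7, 1168552 to 1174826, genome version 5.5) had 0.429 FPKM in amiCYG12 anoxia, 0.353 in amiCYG12 aerated darkness and 0.158 in amiCYG12 standard cells. WT had 2.46 FPKM in anoxia, 3.23 in aerated darkness and 0.132 in standard cells, and the difference in standard conditions was not called. The FAP loci lay on all 17 numbered chromosomes (206 of the 210) and on scaffolds.

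The FAP transcripts were moderately abundant and were lowest in 1 of the 6 groups. Their median level was 7.00 FPKM in amiCYG12 anoxia, 3.12 in amiCYG12 aerated darkness and 8.54 in amiCYG12 standard cells. In WT it was 5.73 FPKM in anoxia, 4.85 in aerated darkness and 7.14 in standard cells. Over all measured loci the medians of the groups lay between 3.001 and 3.291 FPKM. In amiCYG12 aerated darkness the FAP median thus came down to that of all loci, at percentile 51.1, against percentiles of 61.1 to 72.1 in the other groups. That group held the lowest of the 6 values for 163 of the 210 loci (77.6%), against 21.9% of all measured loci. The highest of the 6 values stood in amiCYG12 standard cells for 140 loci (66.7%), against 15.7% of all measured loci.

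**Figure D1:**
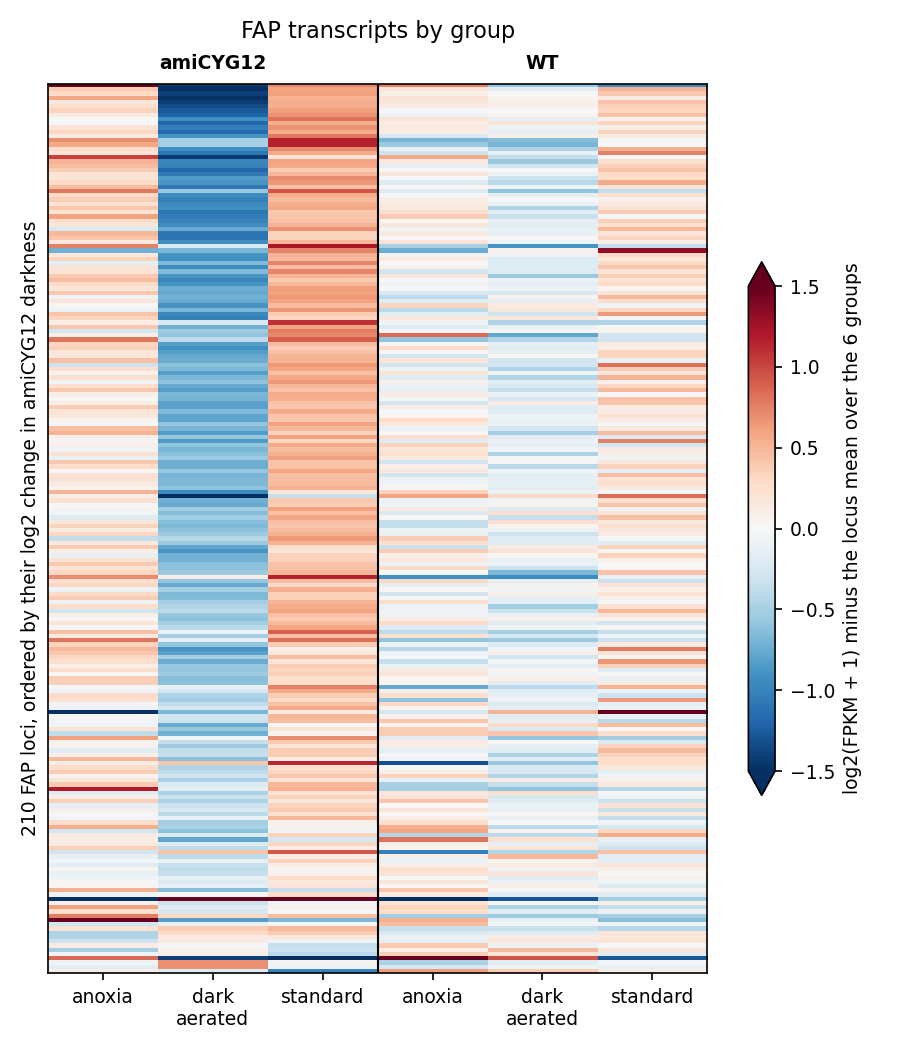
Each row is 1 of the 210 measured FAP loci and each column a group, with amiCYG12 left and WT right; colour gives log2(FPKM + 1) minus the mean of that locus over the 6 groups, cut at 1.5 either way. Rows are ordered by the log2 change in amiCYG12 darkness. The column of amiCYG12 aerated darkness is the lowest for 163 loci and that of amiCYG12 standard cells the highest for 140.

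The mean level over the 6 groups ran from 0.355 to 634 FPKM, with quartiles of 2.99, 6.49 and 12.7. Of the 5 most abundant FAPs, 4 were called nowhere. FAP162 (Cre05.g233050) had 596 FPKM in amiCYG12 anoxia, 662 in amiCYG12 aerated darkness and 475 in amiCYG12 standard cells, and in WT 806, 708 and 559 FPKM in the same order. FAP103, described in the table as similar to nucleoside diphosphate kinases, had 283, 263 and 530 FPKM in amiCYG12 and 330, 278 and 487 FPKM in WT, in the order anoxia, aerated darkness and standard. FAP102 had 376, 220 and 261 FPKM in amiCYG12 and 311, 178 and 191 FPKM in WT in that order. FAP204 had 179, 163 and 128 FPKM in amiCYG12 and 217, 153 and 161 FPKM in WT. None of these 4 was called in any of the 9 comparisons, and FAP103 had uncalled log2 values of −1.01 in amiCYG12 and −0.81 in WT with darkness. FAP113, which was called, is described further on. In all, 29 of the 210 loci (13.8%) were called in no comparison, against 42.8% of all measured loci. Among them was FAP295, described as a cyclic nucleotide dependent protein kinase. FAP295 had 13.3, 11.7 and 16.2 FPKM in amiCYG12 and 16.1, 16.6 and 17.1 FPKM in WT in the order anoxia, aerated darkness and standard.

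Throughout, rose, fell and changed are used of a locus that the authors' deposited table marks as significant (q-value at most 0.05). Log2 values are log2 ratios of FPKM plus a pseudocount of 1, which understates the changes of low loci, unless a sentence credits a value to the authors' deposited table. The standard error behind the deposited p-values, recovered from them, had a median of 0.356 to 0.395 on the log2 scale over the FAP loci, depending on the comparison, and no FAP was called at less than 0.869 in absolute deposited log2. The within-strain comparisons also depend on the scale: bringing the groups to a common median ratio over loci of at least 10 FPKM in all groups removes a shift of −0.13 in amiCYG12 and −0.12 in WT from the changes with oxygen loss. The shifts removed were −0.25 and −0.28 for darkness and −0.38 and −0.41 for anoxia against standard, again in amiCYG12 and WT. Values after this step are called rescaled. Rescaled counts do not use the deposited call. They come from a two-sided normal test on the recovered errors, with Benjamini-Hochberg adjustment at 0.05 within the comparison. These counts were taken for FAPs alone, so no share of all loci stands beside them.

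Most FAP transcripts were lower after aerated darkness in amiCYG12. Of the 210 loci tested, 155 fell (73.8%) and 3 rose (1.43%), whereas 9.77% of all loci tested fell and 4.13% rose. The median FAP change was −1.09, with quartiles of −1.35 and −0.73, against −0.06 over all measured loci. Rescaled, the FAP median was −0.90 against 0.11 for all loci, and 113 FAPs were lower and 4 higher. The same test without rescaling gave 146 lower and 2 higher. The FAP values lay below 0 for 202 loci.

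Few FAPs fell with the same incubation in WT. Of 207 tested, 22 fell (10.6%) and 1 rose (0.483%), against 6.75% and 4.28% of all loci tested. The median was −0.24, against −0.05 for all measured loci. Rescaled, the WT median was −0.01 against 0.14 for all loci, so it stayed below that of all loci. By the rescaled test 1 FAP was lower and 1 higher. The same test without rescaling gave 14 lower and 1 higher, so the WT counts depend on both the test and the scale. The deepest WT falls by the authors' deposited table were those of FAP269, FAP271, FAP63 and FAP24. FAP63 had 0.881 FPKM in amiCYG12 aerated darkness and 2.79 in amiCYG12 standard cells, and 0.790 FPKM in WT aerated darkness and 2.04 in WT standard cells. FAP271 had 1.72 FPKM in amiCYG12 aerated darkness and 4.64 in amiCYG12 standard cells, and 1.50 FPKM in WT aerated darkness and 4.35 in WT standard cells. Both fell in both strains, FAP63 with log2 values of −1.01 in amiCYG12 and −0.76 in WT, and FAP271 with −1.05 and −1.09.

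**Figure D2:**
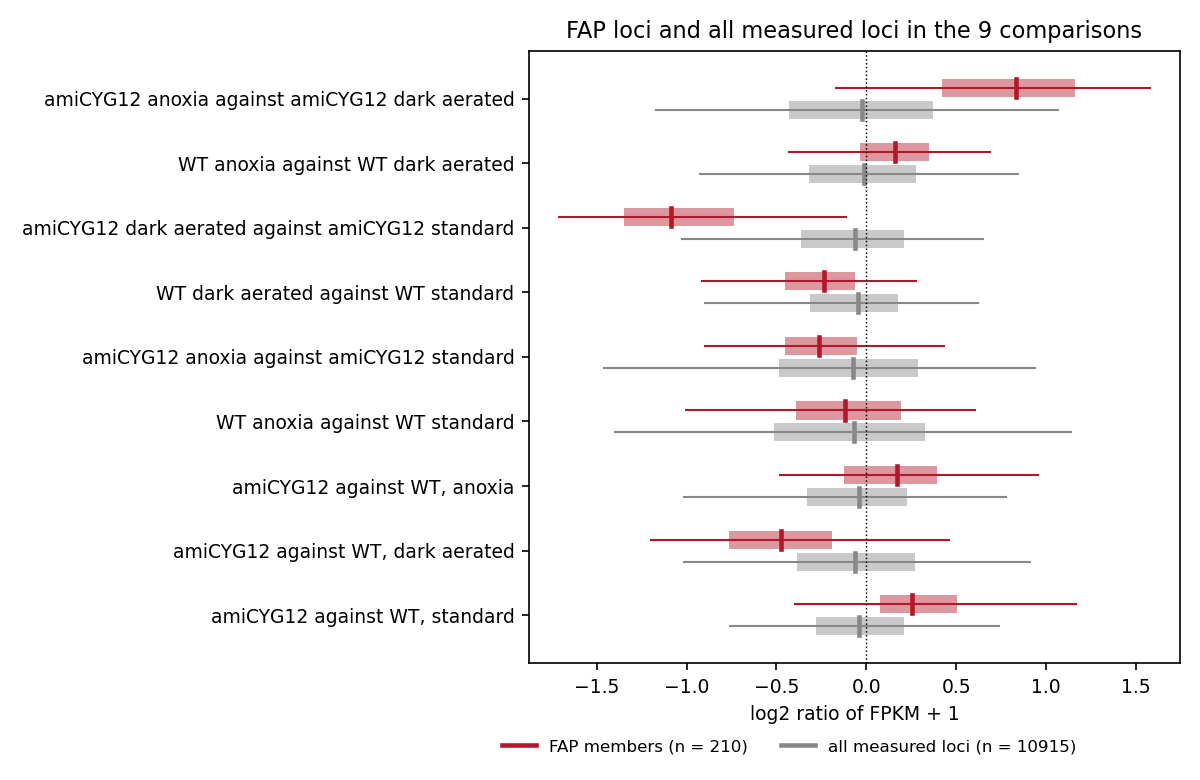
Log2 ratios of FPKM + 1 in the 9 comparisons for the 210 FAP loci (red) and all 10915 measured loci (grey): thick ticks are medians, boxes run between the quartiles and lines between the 5th and 95th percentiles. The FAP boxes lie furthest from 0 in amiCYG12 darkness (median −1.09) and in amiCYG12 oxygen loss (median 0.83). The WT boxes of the same comparisons have medians of −0.24 and 0.16, and that of WT darkness also lies below 0 (quartiles −0.45 and −0.06).

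With oxygen loss, compared as anoxia against aerated darkness, most FAPs rose in amiCYG12. Of 210 tested, 122 rose (58.1%) and 5 fell (2.38%), against 12.9% of all loci tested in each direction. The FAP median was 0.83, with quartiles of 0.42 and 1.16, and that of all measured loci −0.02. Rescaled, the FAP median was 0.95 against 0.07. In WT 7 of 208 FAPs rose and 1 fell, that is 3.37% and 0.481%, against 6.88% and 7.95% of all loci tested, with a FAP median of 0.16 against −0.01. The aerated dark group of amiCYG12 enters both the darkness and the oxygen-loss comparison, so both share its values.

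Anoxia against standard, the comparison that leaves that group out, gave smaller medians. In amiCYG12 4 of 208 FAPs rose (1.92%) and 15 fell (7.21%), against 9.27% and 15.7% of all loci tested. In WT 8 of 208 rose (3.85%) and 15 fell (7.21%), against 11.5% and 15.9%. The FAP medians were −0.26 in amiCYG12 and −0.12 in WT, with −0.08 and −0.07 for all measured loci. Rescaled they were 0.05 in amiCYG12 and 0.22 in WT, with 0.19 and 0.21 for all measured loci. Rescaling thus moved the medians of all loci above 0 as well. The rescaled test gave 10 higher and 5 lower in amiCYG12 and 34 higher and 6 lower in WT. Without rescaling the same test gave 4 higher and 15 lower in amiCYG12 and 8 higher and 15 lower in WT.

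Between the strains, FAPs were lower in amiCYG12 in aerated darkness, and the FAPs of chromosome 6 were higher in amiCYG12 in anoxia and in standard conditions. In aerated darkness 52 of 209 FAPs were lower in amiCYG12 (24.9%) and 7 higher (3.35%), against 10.8% and 8.2% of all loci tested, with a median of −0.48 against −0.06. In standard conditions 4 of 208 were lower (1.92%) and 26 higher (12.5%), against 5.03% and 5.49%, with a median of 0.26 against −0.04. In anoxia 4 of 208 were lower (1.92%) and 16 higher (7.69%), against 9.12% and 5.73%, with a median of 0.17 against −0.04. Rescaling left these medians on the same side of 0, at −0.41, 0.37 and 0.27, against 0.01, 0.05 and 0.03 for all loci.

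Chromosome 6 stood apart in all 3 strain comparisons, for FAPs and for other genes. Of all measured loci tested on it, 37.5% were higher in amiCYG12 in anoxia, 42.5% in aerated darkness and 37.6% in standard conditions. On each of the other 16 numbered chromosomes the share was between 1.01% and 5.4%. The median log2 of the loci on chromosome 6 was 0.57 in anoxia, 0.63 in aerated darkness and 0.61 in standard conditions, and that of the loci elsewhere was −0.08, −0.11 and −0.08. Of the 14 FAPs on chromosome 6, 12 were higher in amiCYG12 in anoxia, 3 in aerated darkness and 13 in standard conditions, and none was lower. These are FAP16, FAP71, FAP74, FAP75, FAP81, FAP85, FAP108, FAP119, FAP141, FAP224, FAP236, FAP279, FAP287 and FAP290. FAP16 and FAP75 were not called in anoxia, and FAP224 was not called in standard conditions.

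Without chromosome 6, a division made after its values were seen, the strain comparisons of the FAPs read differently. In anoxia 4 of 194 FAPs were then higher (2.06%) and 4 lower (2.06%), against 2.16% and 9.82% of all loci elsewhere, so the higher calls were at the background. In standard conditions 13 of 194 were higher (6.7%) and 4 lower, against 1.81% and 5.47%, with a median of 0.23 against −0.08. In aerated darkness 4 of 195 were higher (2.05%) and 52 lower (26.7%), against 4.3% and 11.7%, with a median of −0.53 against −0.11. The within-strain counts had the same sides without chromosome 6, with 145 FAPs lower in amiCYG12 darkness and 115 higher in amiCYG12 oxygen loss, and so did the 17 strain differences in darkness.

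The difference between the strains' responses was tested directly, from the deposited log2 changes and the errors recovered from the deposited p-values, with a two-sided normal test and Benjamini-Hochberg adjustment at 0.05 over all loci. For darkness the response of 17 of 207 FAPs was lower in amiCYG12 than in WT and that of none was higher, against 1.33% lower and 0.826% higher among all loci with a value. At an unadjusted p under 0.05, 105 were lower and 0 higher. The unadjusted counts here and below were made for FAPs alone. No share of all loci was taken at that threshold, so they cannot be set against a background. The differences were below 0 for 194 FAPs and above 0 for 16, with a median of −1.06 against −0.03 over all loci. For oxygen loss 5 of 208 FAPs had a higher response in amiCYG12 and none a lower one, against 0.309% higher and 0.394% lower among all loci (unadjusted, 86 and 1), and the median difference was 0.84 against 0.06. For anoxia against standard 1 of 208 had a lower response and none a higher one, against 0.384% lower and 0.159% higher among all loci (unadjusted, 21 and 4), and the median difference was −0.10 against −0.01. A single FAP difference had a median standard error of 0.517 for darkness, and the smallest darkness difference called was −1.65. With errors from the within-strain responses alone 8 FAPs were called for darkness and 1 for oxygen loss.

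**Figure D3:**
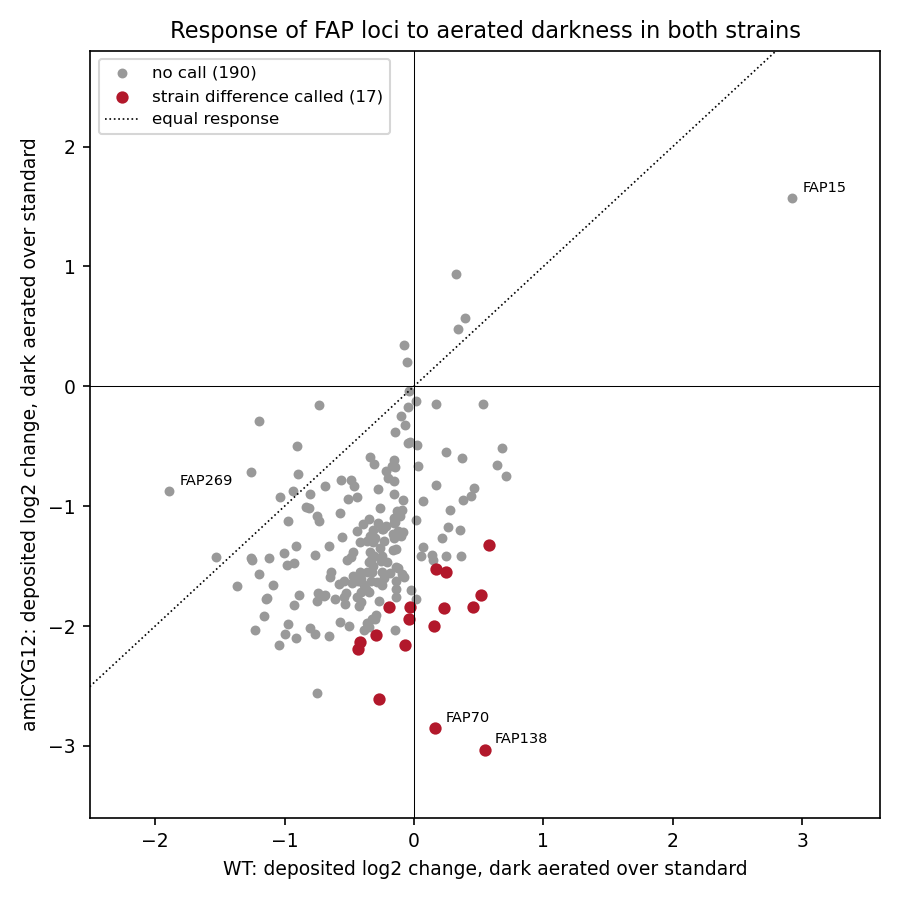
Deposited log2 change with aerated darkness (dark aerated over standard) in amiCYG12 (vertical) against WT (horizontal), 1 point per FAP locus with a tested difference of responses; red points are the 17 loci called for that difference and the dotted line marks equal responses. The red points lie between −3.03 and −1.33 on the amiCYG12 axis and between −0.43 and 0.58 on the WT axis.

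The largest strain differences with darkness were those of FAP138 and FAP70. FAP138 (Cre14.g632350), which carries no function in the table, had 14.4 FPKM in amiCYG12 anoxia, 0.964 in amiCYG12 aerated darkness and 7.87 in amiCYG12 standard cells. In WT it had 7.99 FPKM in anoxia, 2.60 in aerated darkness and 1.78 in standard cells. With darkness it fell in amiCYG12 (−2.18) and had an uncalled value of 0.37 in WT. The difference was −3.58 (standard error 0.663, adjusted p = 0.000187 by the normal test over all loci) on the scale of the authors' deposited table. FAP138 rose with oxygen loss in both strains, and the rise was larger in amiCYG12 (2.97, against 1.32 in WT).

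FAP70 (Cre07.g345400), listed with the central apparatus, had 0.961 FPKM in amiCYG12 anoxia, 0.256 in amiCYG12 aerated darkness and 1.84 in amiCYG12 standard cells. Its WT values were 1.24 FPKM in anoxia, 0.677 in aerated darkness and 0.605 in standard cells. In amiCYG12 it was thus high in the light and low in aerated darkness, while the WT values in aerated darkness and light were close. FAP43 and FAP44, the tether proteins that hold an inner dynein motor domain to the doublet, behaved alike. FAP43 had 2.51, 0.844 and 5.13 FPKM in amiCYG12 and 3.02, 2.17 and 2.62 FPKM in WT, in the order anoxia, aerated darkness and standard. FAP44 had 2.05, 0.926 and 3.34 FPKM in amiCYG12 and 2.69, 1.65 and 1.40 FPKM in WT in that order. Each was higher in amiCYG12 than in WT in standard conditions, and each was called for the strain difference in darkness.

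FAP159 (Cre01.g022750), with no function in the table, and the FAP221 locus on scaffold 49 complete the 5 deepest strain differences with darkness. FAP159 had 0.691, 0.359 and 1.20 FPKM in amiCYG12 and 1.13, 1.28 and 0.892 FPKM in WT in the same order. FAP221 is a central pair protein whose mammalian relative is Pcdp1. Its locus on scaffold 49 (Cre49.g761347) had 1.71, 0.500 and 1.80 FPKM in amiCYG12 and 1.46, 1.31 and 0.960 FPKM in WT. The other FAP221 locus (Cre11.g476376, chromosome 11) had 1.57, 1.44 and 2.73 FPKM in amiCYG12 and 1.88, 1.43 and 1.06 FPKM in WT, and was called in 1 comparison, higher in amiCYG12 than in WT in standard conditions. The 2 loci share a name, and the sources used here do not say how reads matching both were shared out.

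Among the called differences was FAP32, which is the intraflagellar transport protein IFT46. FAP32 had 31.5 FPKM in amiCYG12 anoxia, 6.75 in amiCYG12 aerated darkness and 30.1 in amiCYG12 standard cells. In WT the 3 values were nearly level, at 24.2 FPKM in anoxia, 21.6 in aerated darkness and 22.6 in standard cells. It was called for the strain difference both in darkness and in oxygen loss. FAP276, FAP265 and FAP113 were the other loci called for oxygen loss besides FAP138 and FAP32. FAP276, a microtubule inner protein, had 5.54, 1.93 and 5.13 FPKM in amiCYG12 and 3.01, 4.50 and 5.33 FPKM in WT in the order anoxia, aerated darkness and standard. FAP265, with no function in the table, had 51.4, 19.2 and 38.7 FPKM in amiCYG12 and 26.8, 35.4 and 63.0 FPKM in WT.

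Of the 3 structural lists, the microtubule inner proteins had the largest medians in amiCYG12. Of 28 names on this list 27 had a locus, all measured. In amiCYG12 darkness 26 of 27 fell and none rose, with a median of −1.42, and in amiCYG12 oxygen loss 22 of 27 rose and none fell, with a median of 1.19. In WT darkness 2 of 27 fell and none rose, with a median of −0.32 (rescaled −0.04, against 0.14 for all loci). In WT oxygen loss none was called, with a median of 0.03. For comparison with all 3 lists, 9.77% of all loci tested fell with darkness in amiCYG12 and 6.75% in WT. With oxygen loss 12.9% of all loci rose in amiCYG12 and 6.88% in WT. The WT darkness count of the microtubule inner proteins was thus near the share of all loci.

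FAP20, a protein of the inner junction between the tubules of a doublet, had 61.5 FPKM in amiCYG12 anoxia, 26.5 in amiCYG12 aerated darkness and 89.5 in amiCYG12 standard cells. In WT it stayed between 66.0 and 76.7 FPKM. FAP222 and FAP252, the 2 list members with the largest amiCYG12 rises with oxygen loss, had 31.8 and 52.3 FPKM in amiCYG12 anoxia, 9.06 and 16.5 in amiCYG12 aerated darkness and 39.8 and 63.2 in amiCYG12 standard cells. WT had 27.1 and 40.0 FPKM of them in anoxia, 25.7 and 41.0 in aerated darkness and 34.4 and 51.5 in standard cells. The smallest oxygen-loss values of the list were those of FAP127 and FAP272, neither called. FAP127 had 11.6, 8.40 and 17.8 FPKM in amiCYG12 and 9.91, 10.9 and 11.8 FPKM in WT in the order anoxia, aerated darkness and standard. FAP272, described as similar to calmodulin, had 22.8, 14.6 and 25.1 FPKM in amiCYG12 and 23.2, 19.9 and 27.9 FPKM in WT, and was the 1 member of the list that did not fall in amiCYG12 darkness. FAP222, FAP52 and FAP95 of this list passed the test of the strain difference in darkness. FAP85 and FAP141, the 2 list members on chromosome 6, were higher in amiCYG12 than in WT in anoxia and in standard conditions, and none of the 25 others was. FAP141 was measured with 37.1 FPKM in amiCYG12 standard cells and 15.8 in WT standard cells.

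The spoke base, N-DRC, tether and ruler proteins followed. Of 20 names 17 had a locus and 16 were measured. All 16 fell in amiCYG12 darkness (median −1.18) and 11 rose in amiCYG12 oxygen loss (median 0.90), while none was called in either WT comparison. The WT medians were −0.17 with darkness (rescaled 0.02, against 0.14 for all loci) and 0.21 with oxygen loss. FAP134 and FAP169, subunits of the N-DRC, rose the most with oxygen loss. FAP134 had 12.4, 4.24 and 12.2 FPKM in amiCYG12 and 10.9, 10.9 and 9.68 FPKM in WT in the order anoxia, aerated darkness and standard. FAP169 had 16.0, 6.02 and 16.0 FPKM in amiCYG12 and 15.0, 10.7 and 13.2 FPKM in WT. The lowest oxygen-loss values, uncalled, were those of FAP251 and FAP206, proteins at the bases of radial spokes. FAP206 had 1.30 FPKM in amiCYG12 anoxia, 1.21 in amiCYG12 aerated darkness and 3.65 in amiCYG12 standard cells, and in WT 2.84, 1.62 and 1.91 FPKM. Anoxic amiCYG12 cells thus held less FAP206 than amiCYG12 standard cells and less than anoxic WT cells, and both differences were called. FAP251 had 4.24, 2.89 and 7.70 FPKM in amiCYG12 and 5.23, 4.65 and 4.47 FPKM in WT.

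The central apparatus list had the smallest amiCYG12 medians of the 3. The pseudocount understates the changes of its low members, such as FAP54 and FAP70, and the part of expression level in this order was not tested. Of 35 names 30 loci were found and 29 measured. In amiCYG12 darkness 25 of 29 fell (median −1.001), and in amiCYG12 oxygen loss 17 rose (median 0.72). In WT 2 fell with darkness (median −0.10, rescaled 0.07 against 0.14 for all loci) and 1 rose with oxygen loss (median 0.20). Among all loci tested in WT 6.75% fell with darkness and 6.88% rose with oxygen loss. These 2 WT counts were thus near or below the shares of all loci. FAP178 and FAP239 had the largest oxygen-loss values in amiCYG12 and the FAP221 locus on chromosome 11 and FAP54, a large protein of a central pair projection, the smallest. FAP178 had 8.91, 2.97 and 13.6 FPKM in amiCYG12 and 7.63, 8.46 and 11.4 FPKM in WT in the order anoxia, aerated darkness and standard. FAP239 had 4.74, 1.55 and 6.32 FPKM in amiCYG12 and 3.04, 2.51 and 5.88 FPKM in WT, and fell with darkness in both strains. FAP54 had 0.929, 0.841 and 1.52 FPKM in amiCYG12 and 0.856, 1.06 and 0.770 FPKM in WT and was called nowhere.

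In standard conditions 9 of the 29 central apparatus loci were higher in amiCYG12 than in WT and none lower, with a median of 0.55, against 0.26 for all FAPs and −0.04 for all measured loci. Of all loci tested 5.49% were higher. All 4 list members on chromosome 6 (FAP74, FAP81, FAP119 and FAP279) were among the 9, and 5 of the 25 elsewhere, FAP46 and FAP47 among these. Among all loci the shares were 37.6% on chromosome 6 and 1.81% elsewhere. The 25 had a median of 0.51. In anoxia the same 4 were higher in amiCYG12 and none of the 25. FAP74 had 3.44, 2.05 and 5.03 FPKM in amiCYG12 and 1.49, 1.29 and 1.52 FPKM in WT in the order anoxia, aerated darkness and standard. FAP81 had 4.80, 2.67 and 5.17 FPKM in amiCYG12 and 2.39, 1.54 and 1.64 FPKM in WT. FAP75, outside the list and also on chromosome 6, had 2.38, 1.67 and 5.72 FPKM in amiCYG12 and 2.01, 1.28 and 1.26 FPKM in WT. The standard-condition calls were also set against gene span, with all measured loci put into 4 equally large classes. From the shortest to the longest class, 6.90%, 10%, 4.88% and 27.5% of FAPs were higher in amiCYG12, against 3.78%, 5.28%, 5.66% and 5.94% of the other loci. Outside chromosome 6 the FAP counts were 0 of 54, 1 of 54, 1 of 40 and 11 of 48, the last class holding spans of 6553 bases or more (22.9%, against 2.21% of the other loci). The part of transcript length in these calls was not tested.

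**Figure D4:**
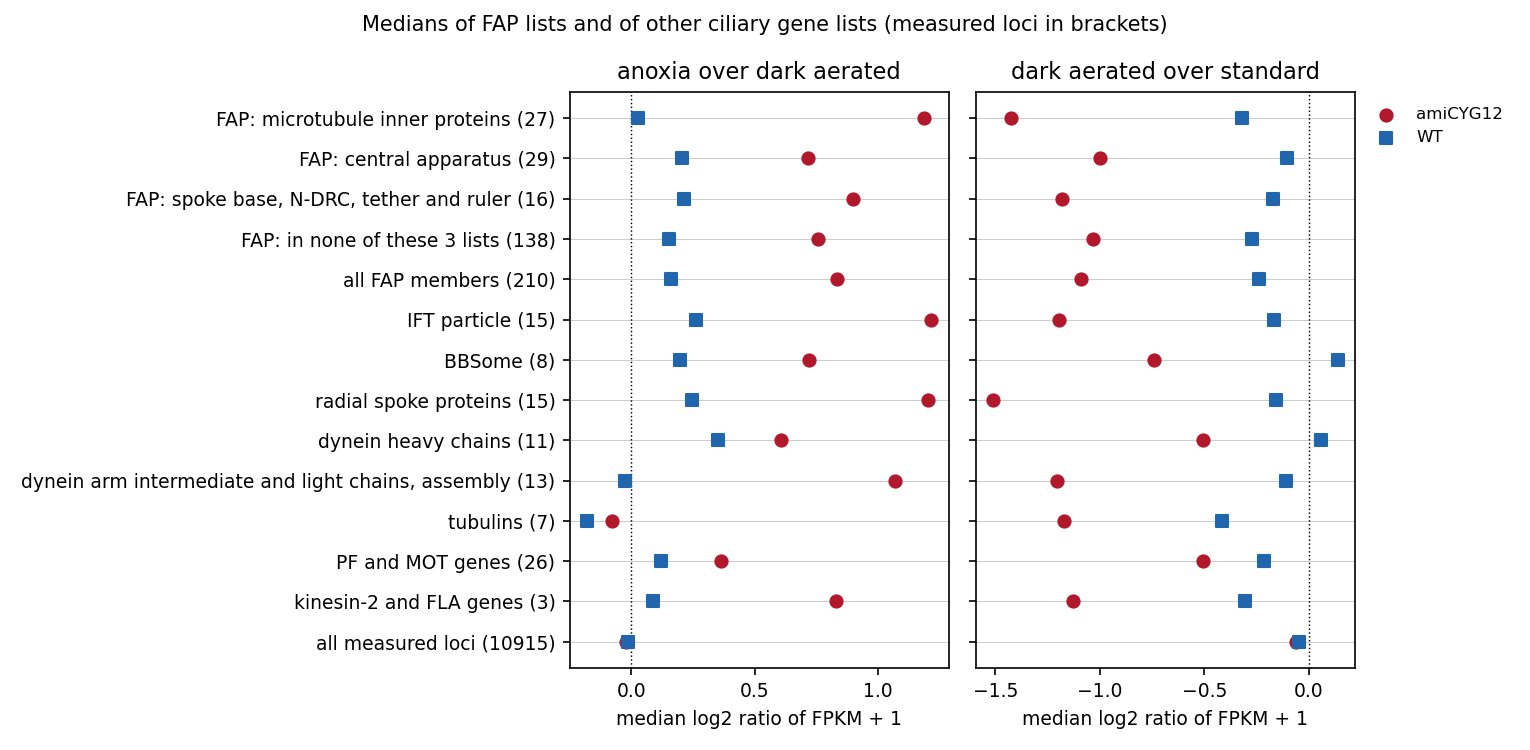
Median log2 ratio of FPKM + 1 in amiCYG12 (circles) and WT (squares) for anoxia over aerated darkness (left) and aerated darkness over standard (right), for FAP lists, other ciliary gene lists and all measured loci. In amiCYG12 the microtubule inner proteins reach 1.19 and −1.42 and the central apparatus list 0.72 and −1.001.

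The 138 measured FAPs outside the 3 lists kept the direction in amiCYG12. In amiCYG12 darkness 88 fell and 3 rose (median −1.03), against 9.77% and 4.13% of all loci tested. In amiCYG12 oxygen loss 72 rose and 5 fell (median 0.76), against 12.9% of all loci in each direction. In WT darkness 18 of 135 fell and 1 rose, against 6.75% and 4.28% of all loci. In WT oxygen loss 6 of 136 rose and 1 fell, against 6.88% and 7.95%. These WT rises were no more frequent than among all loci. FAP7 (Cre12.g531800) was among the deepest falls, with 11.4, 2.25 and 13.2 FPKM in amiCYG12 and 9.83, 7.32 and 12.3 FPKM in WT in the order anoxia, aerated darkness and standard. FAP214 had 20.9, 6.25 and 14.9 FPKM in amiCYG12 and 29.9, 24.2 and 35.4 FPKM in WT, and was lower in amiCYG12 than in WT in aerated darkness and in standard conditions. FAP292 had 85.7, 14.7 and 47.6 FPKM in amiCYG12 and 62.2, 32.3 and 41.7 FPKM in WT, and rose with oxygen loss in both strains (2.46 in amiCYG12, 0.92 in WT).

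A further function is written in the description of 24 FAP loci, 23 of them measured. Of these 11 fell in amiCYG12 darkness and 9 rose in amiCYG12 oxygen loss, with medians of −0.74 and 0.47. Among all loci tested 9.77% fell and 12.9% rose in these comparisons. FAP12, described as a triacylglycerol lipase, had 71.9, 23.4 and 94.1 FPKM in amiCYG12 and 72.0, 67.3 and 85.8 FPKM in WT in the order anoxia, aerated darkness and standard. FAP22, described as qilin-like and known as the transport protein IFT38, had 20.6, 6.93 and 19.6 FPKM in amiCYG12 and 14.7, 13.8 and 17.1 FPKM in WT. FAP262, described as a protein kinase, had 1.74, 1.16 and 2.53 FPKM in amiCYG12 and 2.37, 0.934 and 1.55 FPKM in WT, and rose with oxygen loss in WT but not by a call in amiCYG12. FAP18 and FAP97, both described as serine endopeptidases, fell in amiCYG12 darkness and were called for the strain difference there.

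A few FAPs followed patterns of their own. FAP15 (Cre11.g467531) was called in all 9 comparisons. It had 8.84 FPKM in amiCYG12 anoxia, 1.06 in amiCYG12 aerated darkness and 0.358 in amiCYG12 standard cells, and in WT 39.1, 9.50 and 1.25 FPKM. It thus rose with darkness and again with oxygen loss in both strains, and was lower in amiCYG12 in all 3 incubations. FAP211 (Cre02.g077750) went the other way. It had 0.833, 36.1 and 44.0 FPKM in amiCYG12 and 0.0850, 1.25 and 2.85 FPKM in WT in the order anoxia, aerated darkness and standard. FAP211 fell with oxygen loss in both strains (−4.34 in amiCYG12, −1.05 in WT) and was higher in amiCYG12 in all 3 incubations. The pseudocount shrinks the WT value most: in the authors' deposited table the falls were −5.44 and −3.87. The strain difference of this response was not called.

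FAP269 (Cre16.g674300) had 2.90, 9.08 and 16.6 FPKM in amiCYG12 and 12.5, 22.3 and 82.8 FPKM in WT in that order, and was lower in amiCYG12 in each incubation. Its fall with oxygen loss was called in amiCYG12, and its fall with darkness in WT. FAP24 (Cre02.g081050) fell with darkness in both strains, to 86.9 FPKM in amiCYG12 aerated darkness against 234 in amiCYG12 standard cells, and to 148 FPKM in WT aerated darkness against 355 in WT standard cells. Its anoxic values were 84.5 FPKM in amiCYG12 and 83.1 in WT. FAP224, on chromosome 6, had 83.9, 103 and 171 FPKM in amiCYG12 and 30.3, 51.0 and 95.1 FPKM in WT, and fell in both strains between standard conditions and anoxia.

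FAP113 (Cre07.g321400), the fourth most abundant FAP, had 458 FPKM in amiCYG12 anoxia, 78.6 in amiCYG12 aerated darkness and 87.3 in amiCYG12 standard cells. In WT it had 202 FPKM in anoxia, 129 in aerated darkness and 89.6 in standard cells. It was not called with darkness in either strain (−0.15 in amiCYG12, 0.53 in WT), and was higher in anoxia than in standard conditions in both (2.38 in amiCYG12, 1.16 in WT). The oxygen-loss change was called in amiCYG12 alone (2.53, against 0.64 in WT), and the strain difference was called too.

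**Figure D5:**
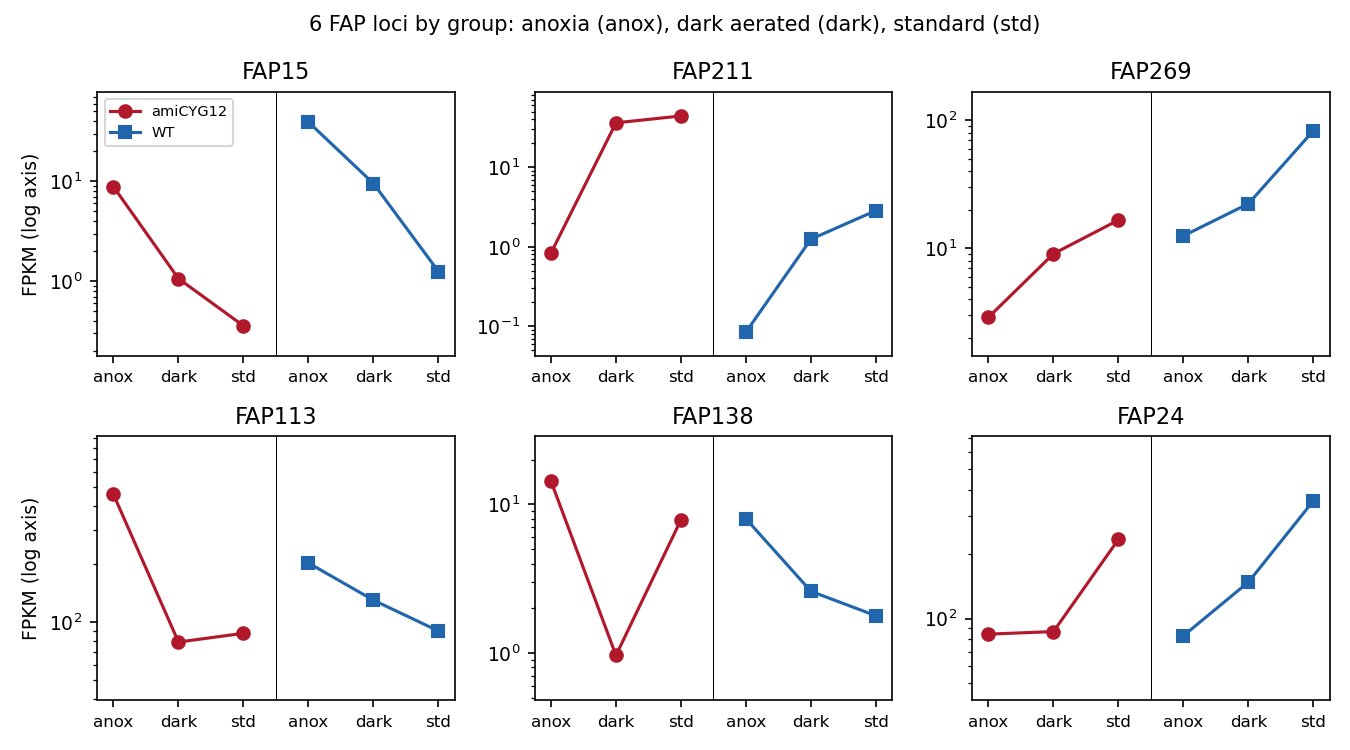
FPKM on a log axis of 6 FAP loci by group, amiCYG12 (circles) left and WT (squares) right in each panel, in anoxia, aerated darkness and standard conditions; each point is the authors' pooled value of 2 libraries. FAP15 is highest in anoxia in both strains (8.84 and 39.1 FPKM), FAP211, FAP269 and FAP24 are lowest there, and FAP138 is lowest in amiCYG12 aerated darkness (0.964 FPKM). Between aerated darkness and anoxia the change of FAP24 was called in neither strain, and that of FAP269 in amiCYG12 alone.

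The 5 FAPs that fell with oxygen loss in amiCYG12 were FAP211, FAP269, FAP283, FAP40 and 1 of the 2 FAP281 loci, both of which lie on scaffold 18. FAP283, FAP40 and this FAP281 locus were low. FAP283 had 0.459, 1.47 and 1.64 FPKM in amiCYG12 and 0.731, 0.767 and 1.27 FPKM in WT in the order anoxia, aerated darkness and standard. FAP40 had 0.344, 1.26 and 0.455 FPKM in amiCYG12 and 0.00837, 0.243 and 0.386 FPKM in WT. FAP281 (Cre18.g749747) had 0.179, 1.12 and 0.237 FPKM in amiCYG12 and 0.105, 0.262 and 0.225 FPKM in WT. FAP40 and this FAP281 locus were highest of all groups in amiCYG12 aerated darkness, where most FAPs were lowest, and with FAP15 they were the 3 that rose there.

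Several FAPs of chromosome 6 differed between the strains in more than 1 incubation. FAP236 had 15.7, 10.03 and 21.8 FPKM in amiCYG12 and 4.45, 4.35 and 8.54 FPKM in WT in the order anoxia, aerated darkness and standard, and was higher in amiCYG12 in all 3 incubations. FAP290 had 21.4, 7.71 and 13.1 FPKM in amiCYG12 and 5.95, 5.46 and 6.28 FPKM in WT. FAP108 had 14.0, 6.66 and 19.6 FPKM in amiCYG12 and 5.30, 3.78 and 5.90 FPKM in WT, and FAP119 of the central apparatus 8.89, 4.12 and 9.07 FPKM in amiCYG12 and 2.77, 2.88 and 3.49 FPKM in WT. FAP290, FAP108 and FAP119 were higher in amiCYG12 in anoxia and in standard conditions and not by a call in aerated darkness. FAP183, with 5.60 FPKM in amiCYG12 anoxia and 11.1 in WT anoxia, was one of the 4 that were lower in amiCYG12 in anoxia, with FAP15, FAP269 and FAP206.

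Changes with anoxia against standard named few further FAPs. In amiCYG12, FAP235 and FAP25 were the rises besides FAP113 and FAP15: FAP235 had 18.8 FPKM in anoxia and 9.81 in standard cells, and FAP25 9.07 and 3.79 FPKM. In WT, FAP51 had 2.21 FPKM in anoxia and 0.807 in standard cells, and FAP181 1.80 and 0.687 FPKM. FAP51 had 1.32 FPKM in amiCYG12 anoxia and 2.31 in amiCYG12 standard cells. Its response alone among the FAPs differed between the strains by the test, at −2.26 (standard error 0.562, adjusted p = 0.0195 by the normal test over all loci) on the scale of the authors' deposited table. FAP98 was one of the 7 that rose with oxygen loss in WT, with 1.83 FPKM in amiCYG12 anoxia and 0.562 in amiCYG12 aerated darkness, and 1.87 FPKM in WT anoxia and 0.758 in WT aerated darkness.

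FAPs fell in amiCYG12 darkness in each of 4 classes of gene span and of level. The FAP spans had a median of 4029 bases, against 4366 for the other measured loci. Across the 4 classes of span 64.7% to 78.3% of FAPs fell, against 7.47% to 8.65% of the other loci. Across the classes of mean level 56.3% to 85.7% of FAPs fell, against 4.90% to 12.4% of the other loci. The rises with oxygen loss in amiCYG12 were more frequent among short FAP loci, at 74.1% of the shortest class and 37.3% of the longest, while among the other loci the share was 9.43% in the shortest and 15.2% in the longest.

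Other flagellar genes, taken by name from the same table, are set beside the FAPs for amiCYG12. Of all loci tested in amiCYG12, 9.77% fell with darkness and 12.9% rose with oxygen loss. With darkness 14 of 15 IFT particle genes fell and with oxygen loss 12 rose, with medians of −1.20 and 1.22. Radial spoke genes gave 14 of 15 and 12 of 15, with medians of −1.51 and 1.20. Intermediate and light chains and assembly factors of the dynein arms gave 11 of 13 in each, with medians of −1.20 and 1.07. Dynein heavy chains, the motors themselves, gave 2 of 11 and 1 of 11, with medians of −0.51 and 0.60. BBSome genes, whose products carry membrane proteins along with IFT, gave 3 of 8 and 3 of 8, with medians of −0.74 and 0.72. Of the tubulin genes 4 of 7 fell with darkness and 1 rose with oxygen loss, with medians of −1.17 and −0.08. The second of these was 0.00 when rescaled, against 0.07 for all loci. With oxygen loss the 1 rise among dynein heavy chains and the 1 among tubulins were each near the share of all loci. Among the genes with PF or MOT symbols 10 of 25 fell and 2 rose with darkness, and 8 of 26 rose and 1 fell with oxygen loss. The FLA genes gave 2 of 3 in each. In WT darkness none of these genes was called except 1 tubulin, which fell. With oxygen loss in WT 1 of 15 radial spoke genes and 1 of 8 BBSome genes rose. Among the PF and MOT genes 2 of 25 rose and 1 fell there, and the other lists had no call. Of all loci tested 6.88% rose and 7.95% fell with oxygen loss in WT.

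The 10 FAP loci under 1 FPKM in all groups were FAP234, FAP244, FAP209, FAP79, FAP72, FAP154, FAP201, FAP242 and 1 locus each of FAP65 and FAP258. The highest of their values were 0.972 FPKM, of FAP234 in WT anoxia, and 0.889 FPKM, of FAP244 in amiCYG12 standard cells. They take no part in the counts above.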

How the data were processed

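Per the labels' protocols, poly(A) RNA was made into stranded TruSeq libraries. Per the submitters' processing notes, the tools were CASAVA 1.8.2, Bowtie2 2.0.5, TopHat2 2.0.6, SAMtools 1.2 and Cufflinks 2.1.1. The strand setting of the quantification was not found in the labels or headers. The deposited table, mapped per the file headers to genome version 5.5 of Phytozome 11, lists 19505 transcripts. The authors estimated FPKM with Cufflinks and pooled the libraries of a group into 1 value, per the file headers. For each of 9 comparisons the authors deposited a log2 fold change, its p-value and q-value, and a significance call.

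Each locus was represented by its transcript with the highest mean FPKM. Members, lists and naming rule were chosen with earlier results of these data known. Named are up to 4 called rises and 4 called falls of each comparison by deposited log2, the 5 most abundant members, members called lower with oxygen loss in amiCYG12, up to 5 called strain differences in each direction per response, and the 2 highest and 2 lowest members of each structural list. Other named loci were chosen after their values were seen. Standard errors were recovered as the deposited log2 change over the normal quantile of its p-value (an upper bound at the smallest p-value deposited). The strain difference used the smaller of the within-strain and between-strain estimates, which gave more calls than the within-strain estimate alone. Its script was tested on simulated data. All 220 loci matched RefSeq locus tags by ID. The alternatives were a stricter threshold, other minimum levels and pseudocount, rescaling, adjustment within a comparison, within-strain errors alone and a wider membership. Python 3.11.15 was used with numpy 2.4.6, pandas 2.3.3, scipy 1.17.1 and matplotlib 3.10.9. The p-values rest on the authors' model for 2 libraries a group.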

Additional observations from a re-analysis of the deposited data

Results flagged for a closer look

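In 22 cases the response of a FAP to darkness or to oxygen loss differed between amiCYG12 and WT by the normal test on the deposited log2 changes of the authors' deposited table, adjusted over all loci, and in 1 further case the response to anoxia against standard did. Each value below is the response in amiCYG12 minus that in WT, on the deposited log2 scale.

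With oxygen loss the differences were 2.28 for FAP138, 2.10 for FAP276, 2.06 for FAP32, 1.90 for FAP113 and 1.82 for FAP265. With darkness they were −3.58 for FAP138, −3.01 for FAP70, −2.33 for FAP43, −2.30 for the FAP221 locus on scaffold 49, −2.26 for FAP159, −2.15 for FAP5, −2.09 for FAP32 and −2.09 for FAP44. The remaining darkness differences were −1.91 for FAP51, −1.90 for FAP196, −1.81 for FAP18, −1.80 for FAP97, −1.78 for FAP95, −1.75 for FAP178, −1.72 for FAP222, −1.70 for FAP134 and −1.65 for FAP52. For anoxia against standard the value was −2.26 for FAP51. FAP138 and FAP32 differed in both darkness and oxygen loss, and these 2 responses share the aerated dark groups.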

How the results depend on the processing

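Of 216 values recomputed under another setting, 164 stayed within the limits set (1.5 times for a count, 0.1 for a median log2) and 52 moved. Without the loci of chromosome 6, a setting chosen after seeing the data, 30 of 33 values stayed; the FAPs higher in amiCYG12 were then 4 in anoxia, 4 in aerated darkness and 13 in standard conditions. With no minimum level all 27 stayed. At a q-value of at most 0.01, 3 FAPs were lower with oxygen loss in amiCYG12 and 3 higher in WT, 1 was higher with darkness in amiCYG12 and 6 lower in WT. For anoxia against standard 2 were then higher and 7 lower in amiCYG12, and 4 higher and 9 lower in WT. Between the strains 2 were lower in anoxia, 4 higher and 27 lower in aerated darkness, and 17 higher and 2 lower in standard conditions. With a minimum of 5 FPKM, 2 were lower with oxygen loss in amiCYG12 and 4 higher in WT, 1 was higher with amiCYG12 darkness, 5 were higher in WT anoxia against standard, and 4 were higher in amiCYG12 in aerated darkness and 15 in standard conditions. The medians were then 0.96 for amiCYG12 oxygen loss, −0.23 for WT anoxia against standard and −0.62 between the strains in aerated darkness. With a pseudocount of 0.1 the medians were 1.06 for amiCYG12 oxygen loss, −1.36 for amiCYG12 darkness and −0.66 between the strains in aerated darkness. Rescaled, the medians were 0.95 and 0.27 for oxygen loss in amiCYG12 and WT, −0.90 and −0.011 for darkness, 0.055 and 0.22 for anoxia against standard and 0.37 between the strains in standard conditions. Rescaled counts, which rest on the normal test with recovered errors, were 1 lower for WT darkness and 10 higher and 5 lower for amiCYG12 anoxia against standard. They were 34 higher and 6 lower for WT anoxia against standard, and 2 lower in amiCYG12 than in WT both in anoxia and in standard conditions. Adjusting within each comparison left 14 lower for WT darkness. Counting FAPs with a second name gave 7 lower in amiCYG12 in anoxia. For the strain difference of responses, an adjusted p of at most 0.01 left 0 for oxygen loss, 3 for darkness and 0 for anoxia against standard. Errors of the within-strain responses alone gave 1 and 8 for oxygen loss and darkness, a minimum of 5 FPKM gave 8 and 11, and rescaling gave 2 for anoxia against standard. The cause of these moves was not tested. A stricter q-value or adjusted p passes fewer loci by construction. The minimum of 5 FPKM does not always do so: it raised the strain differences with oxygen loss from 5 to 8. No paired analysis was possible because the deposited table holds 1 pooled value per group, and for the same reason no replicate could be left out.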
